A study of Arabidopsis thaliana with 144 samples.

Results

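A set of 58 Arabidopsis genes had lower RNA levels in wild-type Col-0 seedlings grown with a synthetic bacterial community (SynCom) than in seedlings grown without bacteria, at both supplies of phosphate (Pi) and in both independent experiments. The genes were chosen on these values: the mean level without bacteria in Col-0 had to reach 5 CPM (counts per 1e6 counts of a library), and the mean log2(CPM + 1) had to be at least 0.4 lower with SynCom in each of 4 strata, low and high Pi in experiments A and B. Of 27206 genes in the deposited count table, 14987 met the level requirement and 58 of these met all 4 effect requirements. The Col-0 values therefore describe how the genes were chosen and carry no test of the SynCom effect. All fitted comparisons below contrast libraries of the mutants phf1 and phr1 phl1, whose values took no part in the choice; the Col-0 libraries enter the same fit and so share its spread and its experiment term. Just inside the threshold were AT4G21445, AT4G13180 and BGLU11, whose weakest stratum effects were -0.41, -0.41 and -0.43, and just outside were AT4G27350, MPL1 and SRG1, with -0.39, -0.39 and -0.38.

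The libraries come from whole seedlings of 3 genotypes: wild-type Col-0, phf1 and phr1 phl1. Seedlings spent 7 days on 1 of 3 media: 5 µM Pi (the -P pre-treatment), 1 mM Pi (+P), or phosphite at 1 mM (+Phi). Phosphite is an oxyanion resembling phosphate that plants take up and do not use as a nutrient. They were then moved to medium without sucrose holding 50 µM Pi (low) or 625 µM Pi (high), with or without SynCom, for 12 days. Each of the 36 groups has 4 libraries, 2 from experiment A and 2 from experiment B, which the submitters call biological replicates, so that each combination of genotype, Pi and bacteria has 12 libraries over the 3 pre-treatments.

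Plants dispose of reactive or foreign small molecules in steps. Cytochromes P450 and other oxidoreductases make a reactive group, glutathione S-transferases (GSTs) attach glutathione, UDP-glucosyltransferases (UGTs) attach sugar, and membrane transporters move the product into the vacuole or out of the cell. Many genes of this system are known to be induced together by xenobiotics and reactive electrophiles, in part through TGA-type bZIP factors, which bind DNA at TGACG. PHR1 and PHL1 are MYB-type transcription factors that switch on the Pi starvation programme. PHF1 is an endoplasmic reticulum protein needed for high-affinity Pi transporters to reach the plasma membrane, so that phf1 plants take up less Pi.

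Library totals ran from 720256 to 10668475 counts. The ratio of PHR1 to PHL1 counts, which separates phr1 phl1 from the other genotypes and does not separate phf1 from Col-0, went against the genotype label in 4 libraries, all of experiment A. They carry the labels Col-0 (A1 of +Phi at low Pi, without bacteria), phf1 (-P, high Pi, SynCom, A2), phf1 (+Phi, high Pi, SynCom, A1) and phr1 phl1 (+P, high Pi, SynCom, A1). Some counts are also given without them. Counts by role, by gene list and of genes called in several comparisons are given only with all libraries kept. The libraries are from bulk tissue, so fewer cells of a type and less RNA per cell cannot be told apart. With SynCom the summed level of 10 root hair genes was higher: its median went from 43.9 to 222 CPM in Col-0 at high Pi, from 75.2 to 329 CPM in Col-0 at low Pi, from 138 to 485 CPM in phf1 at low Pi, from 126 to 207 CPM in phf1 at high Pi and from 63.5 to 154 CPM in phr1 phl1 at high Pi. In phr1 phl1 at low Pi it went from 59.2 to 88.0 CPM, and the SynCom libraries there, from 15.1 to 357 CPM, enclosed the range without bacteria, from 39.4 to 114 CPM. Of the 10 root hair genes 9 rose in phf1 at low Pi, 3 rose and 1 fell in phf1 at high Pi, 2 rose in phr1 phl1 at low Pi and 7 rose in phr1 phl1 at high Pi. In Col-0 at high Pi that sum ran from 24.6 to 79.7 CPM without bacteria and from 84.1 to 995 CPM with SynCom, and no gene of the list was at 0 in all libraries. None of the 15 photosynthesis genes and none of the 5 root endodermis genes tested was called in the 4 comparisons of SynCom with no bacteria in the mutants. The part of a changed tissue make-up in the values below was not tested.

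The genes fall into 7 roles, assigned after their values had been seen: 8 GSTs, 4 UGTs, 10 enzymes of oxidation and reduction, 9 hydrolases and other metabolic enzymes, 6 transporters, 8 genes of regulation and signalling, and 13 of other or unknown role. Over the 4 Col-0 strata the mean effect of the 58 genes ran from -2.70 to -0.51 on the log2(CPM + 1) scale. The strongest belonged to CYP81D11, a cytochrome P450 known to be induced by xenobiotics and jasmonate. UGT74E2, which glucosylates the auxin precursor indole-3-butyric acid, followed with -2.48, and NIT2, a nitrilase that can release the auxin indole-3-acetic acid from its nitrile, with -2.05. GSTU25, a tau-class GST, came next with -1.79, and MIOX4, which oxidises myo-inositol to glucuronic acid, with -1.54. The 7 that complete the first 12 were GSTU24 (-1.50), the oxidoreductase gene AT1G60750 (-1.49), AT2G41730 (-1.46), AT1G26390 of the berberine-bridge enzyme family (-1.44), the sterol C-22 desaturase CYP710A1 (-1.35), and AT5G24640 (-1.34) and AT4G08555 (-1.30), both annotated as uncharacterized.

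In Col-0 at low Pi, CYP81D11 lay at 4.73, 39.2 and 74.3 CPM (lowest, median and highest of 12 libraries) without bacteria and at 1.21, 3.77 and 30.8 CPM with SynCom. At high Pi it lay at 13.6, 26.3 and 92.5 CPM without bacteria and at 0.79, 3.66 and 10.8 CPM with SynCom. The groups overlapped at low Pi, where the lowest library without bacteria was the one that went against its Col-0 label, and did not overlap at high Pi; CYP81D11 was the 1 gene of the 14987 eligible (0.00667%) that was lower without overlap there, in values that the rule used. UGT74E2 at high Pi lay at 10.4, 49.1 and 171 CPM without bacteria and at 2.79, 7.75 and 34.0 CPM with SynCom. NIT2 at high Pi lay at 65.2, 395 and 1247 CPM without bacteria and at 13.3, 72.7 and 265 CPM with SynCom. For both genes the medians were far apart and the ranges overlapped. MIOX4 showed an unequal effect in Col-0 at the Pi levels: its stratum effects were -2.32 and -2.76 at low Pi and -0.57 and -0.51 at high Pi (experiments A and B).

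**Figure D1:**
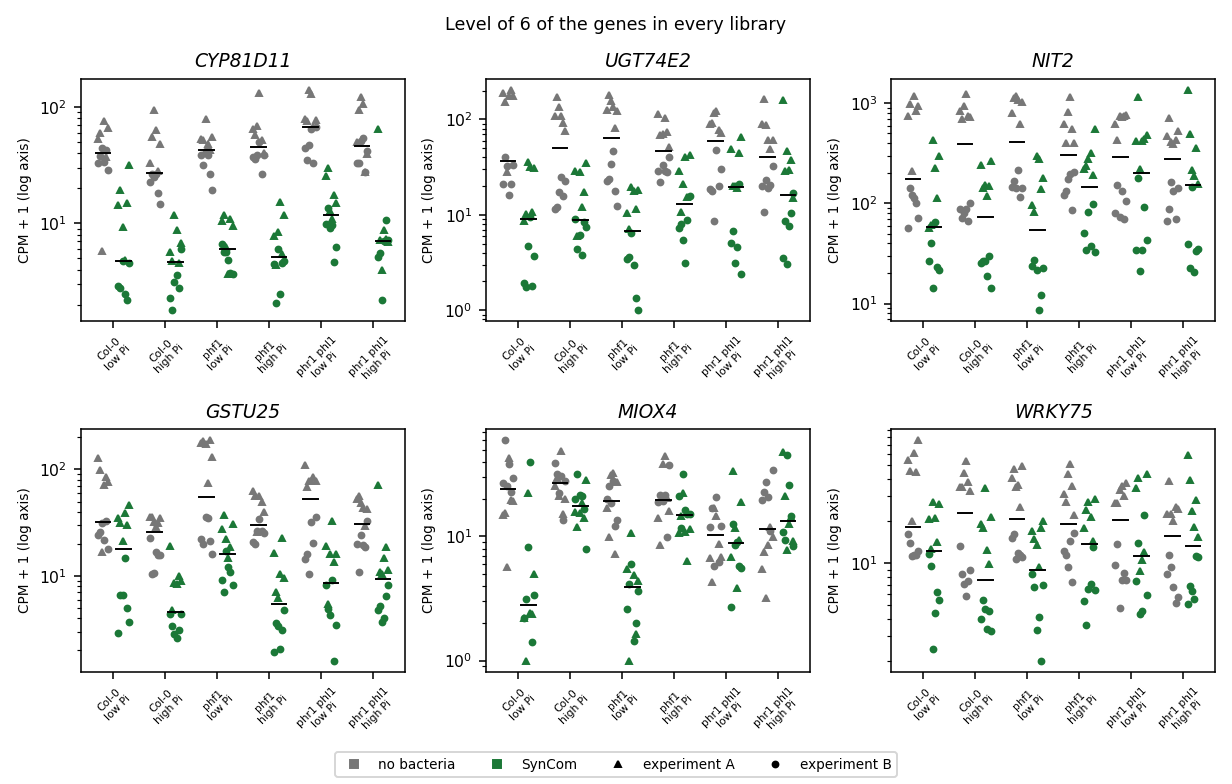
Level of 6 of the 58 genes in every library, as CPM + 1 on a log axis, by genotype and Pi level; grey symbols are libraries without bacteria, green symbols are SynCom libraries, triangles are experiment A, circles are experiment B and black lines are medians of 12 libraries. CYP81D11 is separated in most pairs of columns, whereas MIOX4 in phr1 phl1 at low Pi has medians of 9.36 CPM without bacteria and 7.81 CPM with SynCom.

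Several genes of the set hold the letters that TGA factors bind and encode oxidising or conjugating enzymes, among them GSTU7, GSTU24, GSTU25 and UGT73B5. The promoters of 4 others of this kind are shown as examples. Each is the 250 bases before the annotated gene start in the RefSeq assembly TAIR10.1, written 5′ to 3′ on the strand of the gene, which is the minus strand for all 4, and capitals mark TGACG or its reverse complement. CYP81D11 is at chr3:10790554-10790803, GSTU1 at chr2:12632539-12632788, UGT73B1 at chr4:16350204-16350453 and UGT73B3 at chr4:16344819-16345068.
CYP81D11: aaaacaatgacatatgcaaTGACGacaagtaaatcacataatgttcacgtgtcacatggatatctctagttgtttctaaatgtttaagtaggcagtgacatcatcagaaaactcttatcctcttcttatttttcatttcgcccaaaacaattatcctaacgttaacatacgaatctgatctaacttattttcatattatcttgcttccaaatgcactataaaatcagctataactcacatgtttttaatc
GSTU1: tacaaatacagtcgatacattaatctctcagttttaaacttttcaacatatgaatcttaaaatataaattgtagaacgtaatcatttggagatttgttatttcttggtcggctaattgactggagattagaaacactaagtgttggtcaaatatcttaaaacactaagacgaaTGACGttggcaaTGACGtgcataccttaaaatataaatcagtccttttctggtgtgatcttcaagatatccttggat
UGT73B1: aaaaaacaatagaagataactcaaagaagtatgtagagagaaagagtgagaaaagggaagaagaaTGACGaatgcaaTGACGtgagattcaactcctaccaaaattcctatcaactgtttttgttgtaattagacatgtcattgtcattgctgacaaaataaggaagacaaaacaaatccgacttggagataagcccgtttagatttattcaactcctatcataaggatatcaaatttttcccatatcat
UGT73B3: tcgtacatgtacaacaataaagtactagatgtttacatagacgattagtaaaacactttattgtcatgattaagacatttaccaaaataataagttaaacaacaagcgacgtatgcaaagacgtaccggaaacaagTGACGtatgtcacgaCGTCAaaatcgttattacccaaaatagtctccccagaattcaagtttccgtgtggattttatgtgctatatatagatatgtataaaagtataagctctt

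Searched on both strands, TGACG was found in 21 of 58 windows (36.2%) against 19.6% of the 14975 windows of eligible genes. At least 2 matches were found in 9 windows (15.5%) against 3.59%. The W-box core TTGAC, the letters WRKY factors bind, was in 56.9% of the windows against 45.3%, the G-box CACGTG in 5.17% against 7.38%, and GNATATNC, the letters PHR1 binds, in 1.72% against 5.54%. A pair of TGACG in the same direction with any 7 bases between them was noticed in the printed windows of GSTU1 and UGT73B1 and then searched: it was in 3 windows of the set (also GSTU7), or 5.17%, and in 14 windows, or 0.0935%, of the eligible genes, which include those 3. The looser form, a pair of TGAC with any 8 bases between them, was also added after the windows were seen. It was in 5 windows of the set, those 3 with CYP81D11 and GSTU2, or 8.62% against 0.788%. The window of GSTU2 overlaps the neighbouring gene GSTU1, and GSTU1, GSTU2 and GSTU7 belong to 1 gene family. These matches are descriptions of sequence, without a measurement of binding. No TGACG was found in the windows of 37 genes, among them UGT74E2, NIT2 and MIOX4.

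**Figure D2:**
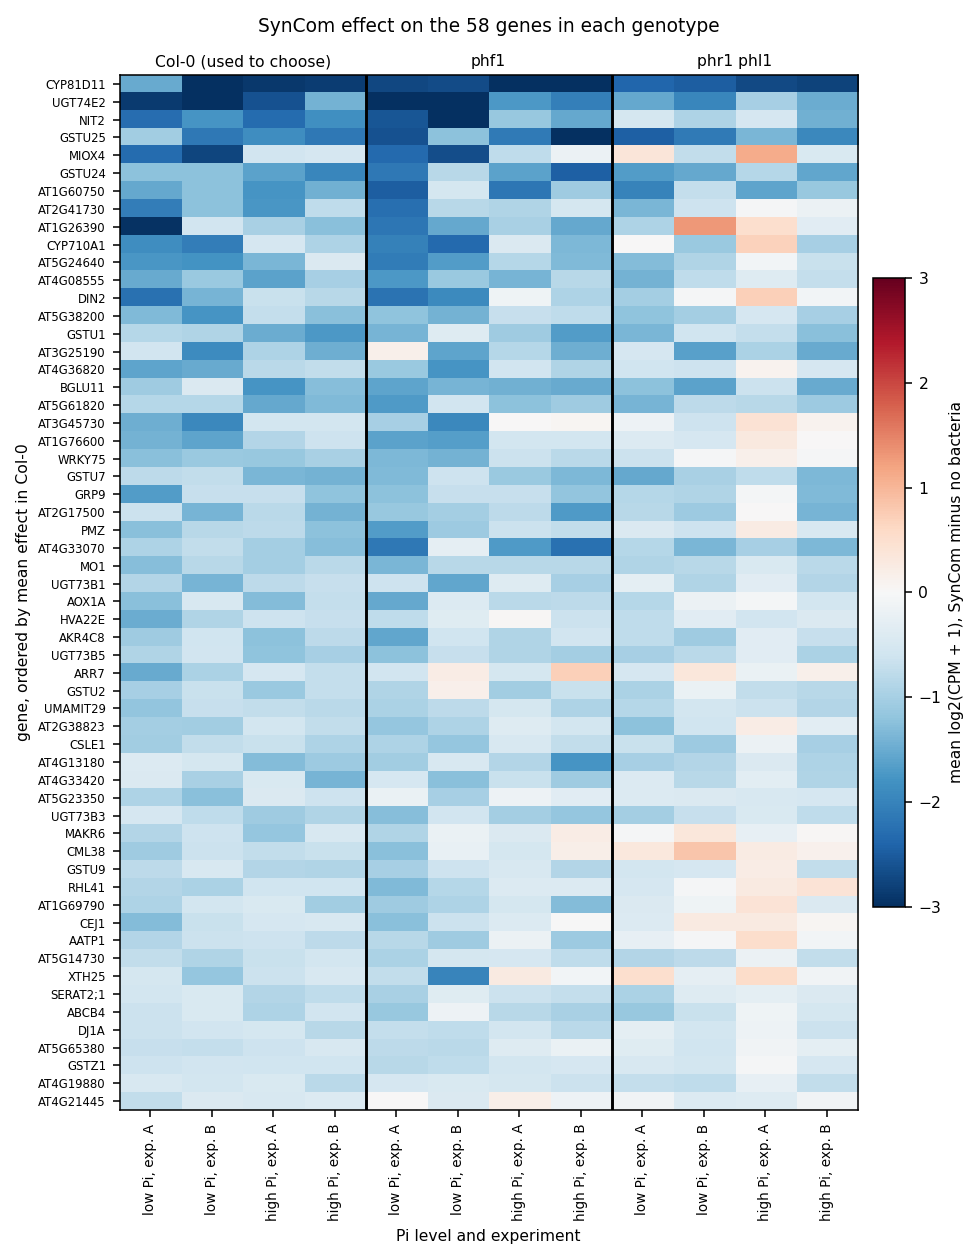
Difference of mean log2(CPM + 1), SynCom minus no bacteria, for each of the 58 genes (rows) in the 4 strata of Col-0, phf1 and phr1 phl1 (columns); blue is lower with SynCom and red is higher. The Col-0 columns were used to choose the genes; the phr1 phl1 high Pi experiment A column is the palest, with 20 of 58 genes at or below -0.4.

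In phf1 at low Pi, 56 of the 58 genes fell with SynCom and none rose, at an adjusted p under 0.05 in edgeR's quasi-likelihood test over 19321 genes; 8.9% of all tested genes were called lower and 8.79% higher. The median log2 fold change of the 58 genes was -1.16, against 0.00 for all genes. The exceptions were AT4G21445 and ARR7, a type-A response regulator that dampens cytokinin signalling. UGT74E2 lay at 11.5, 63.1 and 179 CPM without bacteria and at 0, 5.83 and 18.6 CPM with SynCom, a log2 fold change of -3.39 ± 0.31 (SE; edgeR adjusted p = 3.37e-15). CYP81D11 lay at 18.3, 41.4 and 78.0 CPM without bacteria and at 2.64, 4.98 and 10.7 CPM with SynCom, a log2 fold change of -2.98 ± 0.27 (edgeR adjusted p = 3.37e-15). For UGT74E2 3 of the 12 SynCom libraries reached the range of the libraries without bacteria, and CYP81D11 was lower in every SynCom library than in any library without bacteria; 0.0601% of eligible genes showed such separation. NIT2 fell by 2.78 ± 0.29 on the log2 scale (edgeR adjusted p = 2.84e-12). MO1, annotated as a monooxygenase, fell by 1.18 ± 0.12 (edgeR adjusted p = 2.01e-12). AT5G65380, annotated as an efflux transporter of the MATE family, lay at 101, 161 and 177 CPM without bacteria and at 77.4, 86.5 and 110 CPM with SynCom. Of the 12 SynCom libraries 2 reached the range of the libraries without bacteria. In the same libraries 9 of 10 root hair genes rose, and the part of root hair growth in the values of the 58 genes was not tested.

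In phf1 at high Pi, 37 of the 58 genes fell and none rose, where 1.96% of all tested genes were called lower and 2.4% higher. The median log2 fold change was -0.72. All 8 GSTs and all 4 UGTs were among the 37, and 2 of the 8 regulatory and signalling genes were. CYP81D11 lay at 25.5, 44.0 and 130 CPM without bacteria and at 1.05, 4.14 and 14.2 CPM with SynCom, a log2 fold change of -3.22 ± 0.27 (edgeR adjusted p = 1.18e-17). GSTU25 lay at 18.9, 29.2 and 62.2 CPM without bacteria and at 0.92, 4.49 and 21.6 CPM with SynCom, a log2 fold change of -2.70 ± 0.28 (edgeR adjusted p = 1.16e-12). AT4G33070, a pyruvate decarboxylase gene of ethanol fermentation, lay at 4.76, 6.60 and 10.9 CPM without bacteria and at 0.23, 1.198 and 2.24 CPM with SynCom. CYP81D11 and AT4G33070 did not overlap between the arms, GSTU25 did in 1 SynCom library, and 0.0400% of eligible genes were lower without overlap. GSTU24, which lies next to GSTU25 on chromosome 1, fell by 2.004 ± 0.22 on the log2 scale, and the libraries cannot show how reads shared by these similar genes were divided. GSTU1 fell by 1.38 ± 0.18, and AT4G13180, annotated as an NAD(P)-binding protein, by 1.24 ± 0.16 (edgeR adjusted p = 7.38e-09). In experiment A alone 23 of the 58 genes were called lower, and in experiment B alone 39. Without the 4 libraries against their label the count was 39. Of all tested genes 378 were called lower with these libraries and 290 without them.

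In phr1 phl1 at low Pi, 34 of the 58 genes fell and none rose, where 1.53% of all tested genes were called lower and 2.7% higher. The median log2 fold change was -0.67. The 4 UGTs and 6 of the 8 GSTs fell, and none of the 8 regulatory and signalling genes did. CYP81D11 lay at 31.7, 66.2 and 139 CPM without bacteria and at 3.62, 10.8 and 28.9 CPM with SynCom, a log2 fold change of -2.51 ± 0.26 (edgeR adjusted p = 2.04e-12). Its arms did not overlap, as was the case for 0.0133% of eligible genes. GSTU25 lay at 9.49, 51.3 and 108 CPM without bacteria and at 0.60, 7.67 and 31.5 CPM with SynCom, a log2 fold change of -2.30 ± 0.28 (edgeR adjusted p = 1.4e-09). The ranges of GSTU25 overlapped while its medians were far apart. AT4G19880, annotated as a glutathione transferase family protein, fell by 0.72 ± 0.09 (edgeR adjusted p = 1.4e-09), a small change with a small error. GSTU7 fell by 1.26 ± 0.16, and GSTU24 by 1.61 ± 0.22.

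In phr1 phl1 at high Pi, 24 of the 58 genes fell and none rose, where 0.818% of all tested genes were called lower and 3.38% higher. The median log2 fold change was -0.37, and 16 of the 58 estimates were above 0. CYP81D11 lay at 26.4, 44.6 and 121 CPM without bacteria and at 1.19, 6.10 and 63.5 CPM with SynCom, a log2 fold change of -2.64 ± 0.26 (edgeR adjusted p = 2.39e-13). Its ranges overlapped here through 1 SynCom library. GSTU7 fell by 1.01 ± 0.16 on the log2 scale, GSTU25 by 1.60 ± 0.26, AT4G19880 by 0.49 ± 0.08 and AT1G60750 by 1.68 ± 0.30. The count differed between the experiments: 6 genes were called lower in experiment A alone and 33 in experiment B alone. One SynCom library at high Pi, replicate A1 of the +P pre-treatment, is labelled phr1 phl1 and had PHR1 at 83.2 CPM. It had a mean level of 6.15 on the log2(CPM + 1) scale over the 58 genes, the highest of its 12. Without the 4 libraries against their label 29 genes were called lower, among them all 24, and the log2 fold change of CYP81D11 was -3.18. Of all tested genes 158 were called lower with these libraries and 215 without them.

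The same 23 genes fell in all 4 mutant comparisons, and they are 23 of 38 such genes among the 19321 tested (0.197%). They comprise CYP81D11, MO1, the oxidoreductases AT1G60750 and AT4G13180 and the peroxidase family gene AT4G33420. The conjugating enzymes among them were GSTU1, GSTU7, GSTU24, GSTU25, AT4G19880, UGT74E2, UGT73B1, UGT73B3 and UGT73B5. The others were the amino acid transporter gene UMAMIT29, AT3G25190 (annotated as a vacuolar iron transporter family member), the cellulose synthase-like gene CSLE1, the beta-glucosidase gene BGLU11, AT4G33070, DJ1A, AT5G38200, AT5G61820 and GRP9. A further 9 genes fell in 3 comparisons, 8 in 2 and 16 in 1. The 4 comparisons use separate libraries but share 1 fitted spread. UGT73B1 and UGT73B3 lie near each other on chromosome 4, and the part of reads shared between such relatives was not tested. CYP81D11, UGT73B1, UGT73B3, GSTU7, AT5G61820 and AT4G33420 also overlap annotated antisense genes, which a non-stranded library cannot separate. UGT73B5 overlaps a gene on its own strand. Outside these 23, AT2G17500, GSTU2, SERAT2;1, ABCB4 and GSTZ1 overlap annotated antisense genes, and ABCB4 also overlaps a gene on its own strand.

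The counts by role, between which no test was made, keep all libraries, also those against their label. They are given in the order phf1 low Pi, phf1 high Pi, phr1 phl1 low Pi and phr1 phl1 high Pi. Of the 8 GSTs 8, 8, 6 and 6 fell, and of the 4 UGTs all fell in each. Of the 10 enzymes of oxidation and reduction 10, 7, 6 and 5 fell, and of the 9 hydrolases and other metabolic enzymes 9, 7, 6 and 5. Of the 6 transporters 6, 4, 5 and 2 fell, of the 8 regulatory and signalling genes 7, 2, 0 and 0, and of the 13 others 12, 5, 7 and 2. The median log2 fold change of the GSTs was -0.95, -1.10, -0.88 and -0.93, and that of the regulatory and signalling genes was -1.15, -0.23, -0.19 and 0.29.

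Among the sugar-conjugating enzymes, UGT73B1 lay in phr1 phl1 at high Pi at 91.9, 135 and 175 CPM without bacteria and at 53.3, 93.6 and 132 CPM with SynCom. The arms overlapped, and the log2 fold change was -0.58 ± 0.15 (edgeR adjusted p = 0.0132). Among the transporters, AT3G25190 lay in phr1 phl1 at high Pi at 71.9, 110 and 149 CPM without bacteria and at 26.5, 45.5 and 98.5 CPM with SynCom. Of the 12 SynCom libraries 1 reached the range without bacteria, and the log2 fold change was -1.19 ± 0.24 (edgeR adjusted p = 0.00033). ABCB4 fell by 0.71 ± 0.15 and 0.84 ± 0.15 on the log2 scale in phf1 at low and high Pi and by 0.89 ± 0.15 in phr1 phl1 at low Pi, whereas at high Pi in phr1 phl1 it had -0.23 ± 0.15 (edgeR adjusted p = 0.493). Among the metabolic enzymes, BGLU11, a hydrolase of beta-glucosides, fell by 1.59 ± 0.19, 1.45 ± 0.19, 1.32 ± 0.19 and 0.95 ± 0.19 in the order above. GRP9 lay in phf1 at high Pi at 451, 660 and 1260 CPM without bacteria and at 157, 356 and 1050 CPM with SynCom. Its arms overlapped widely, and the log2 fold change was -0.85 ± 0.15 (edgeR adjusted p = 5.78e-05). The uncharacterized genes AT5G24640 and AT4G08555 had low counts: AT5G24640 in phf1 at low Pi lay at 2.09, 10.95 and 31.9 CPM without bacteria and at 0, 1.18 and 12.0 CPM with SynCom, where 2 libraries held no count.

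The SynCom effect differed between the mutants for 13 of the 58 genes, and in all 13 the effect was more positive in phr1 phl1; 0.683% of all tested genes were called higher and 0.0466% lower in this test of the difference. The difference (phr1 phl1 minus phf1, averaged over Pi) had a median of 0.41 on the log2 scale over the 58 genes. MIOX4 in phf1 at low Pi lay at 6.29, 18.24 and 31.5 CPM without bacteria and at 0, 2.89 and 9.77 CPM with SynCom. In phr1 phl1 at low Pi it lay at 3.26, 9.36 and 19.7 CPM without bacteria and at 1.69, 7.81 and 32.5 CPM with SynCom. Its ranges overlapped widely in phr1 phl1, and the difference of effects was 1.81 ± 0.38 (edgeR adjusted p = 0.0042). NIT2 in phf1 at low Pi lay at 116, 414 and 1180 CPM without bacteria and at 7.60, 53.3 and 295 CPM with SynCom. In phr1 phl1 at low Pi NIT2 lay at 69.4, 290 and 763 CPM without bacteria and at 19.9, 200 and 1162 CPM with SynCom, with full overlap. The difference of effects for NIT2 was 1.38 ± 0.28 (edgeR adjusted p = 0.00264), and for AT1G76600, annotated as a poly polymerase, it was 0.97 ± 0.19 (edgeR adjusted p = 0.00243).

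By role, 5 of the 8 regulatory and signalling genes differed in this way and none of the 8 GSTs or 6 transporters did. The 5 were WRKY75, a regulator known from Pi starvation and root hair formation, the zinc finger gene RHL41 of the light and oxidative stress response, the calcium sensor gene CML38, the zinc finger gene PMZ and the kinase gene AT1G69790. WRKY75 in phf1 at low Pi lay at 9.76, 19.7 and 48.6 CPM without bacteria and at 1.01, 7.87 and 19.1 CPM with SynCom. In phr1 phl1 at low Pi it lay at 3.80, 19.3 and 36.4 CPM without bacteria and at 3.32, 10.3 and 42.0 CPM with SynCom. The medians of WRKY75 were lower with SynCom in both mutants, and the phr1 phl1 ranges overlapped throughout. The other genes that differed were CYP710A1, UGT74E2, AT1G26390, the AAA-type ATPase gene AATP1 and DIN2, a dark-induced beta-glucosidase. For CYP81D11 the difference was 0.52 ± 0.26 (edgeR adjusted p = 0.466), which does not show that the effects are alike. The count of 13 was the same, with the same genes, without the 4 libraries against their label; it was 10 in experiment A alone, 4 in experiment B alone, and 1 when the A1 libraries were left out.

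**Figure D3:**
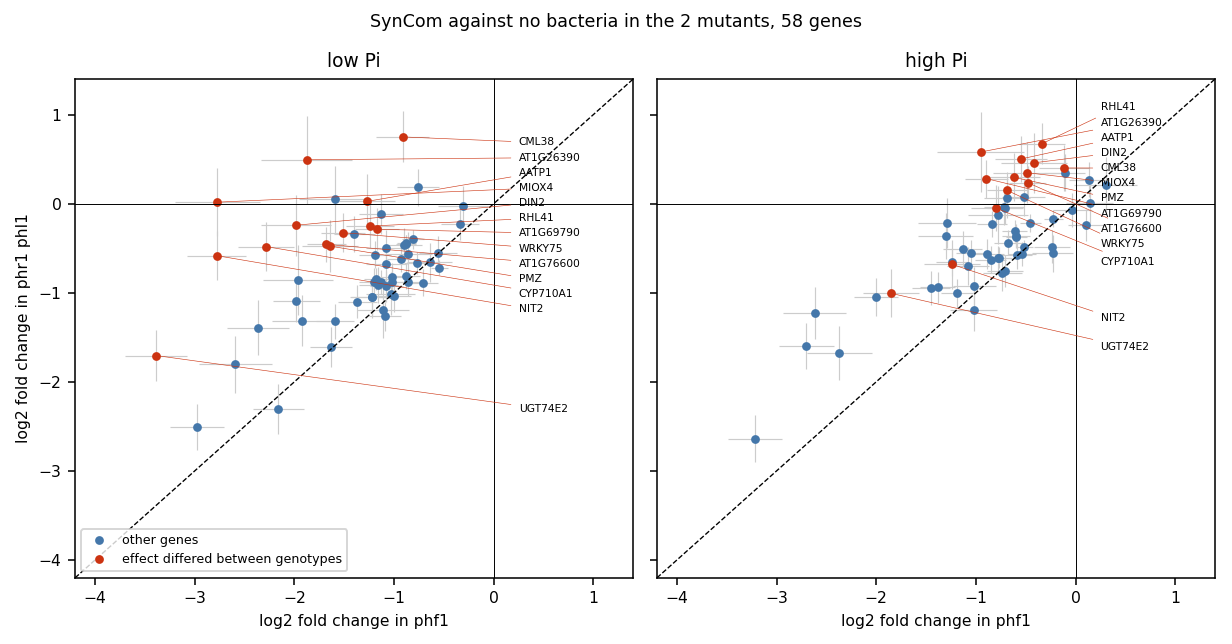
Log2 fold change with SynCom for the 58 genes in phf1 (horizontal) and phr1 phl1 (vertical), at low Pi (left) and high Pi (right); points are edgeR estimates, bars are standard errors and the dashed line marks equal effects. The 13 named genes in red, whose effect differed between the genotypes, lie above the line at low Pi.

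Between Pi levels, the SynCom effect in the mutants differed for 17 of the 58 genes, and in all 17 the effect was more negative at low Pi; 3.22% of all tested genes were called lower and 2.93% higher in this test. The median difference (low minus high Pi) was -0.31 on the log2 scale. AT3G45730, annotated as uncharacterized, lay at 38.3, 51.7 and 76.2 CPM without bacteria and at 6.42, 15.5 and 51.9 CPM with SynCom in phf1 at low Pi. At high Pi it lay at 25.5, 50.0 and 64.0 CPM without bacteria and at 31.8, 43.3 and 108 CPM with SynCom. The high Pi arms of phf1 overlapped throughout. Averaged over both mutants, the difference was -1.07 ± 0.20 (edgeR adjusted p = 0.000165). AT2G41730 had a difference of -1.22 ± 0.23 (edgeR adjusted p = 0.000197), and AT1G76600 of -0.95 ± 0.19 (edgeR adjusted p = 0.000498). Of the regulatory and signalling genes 4 were in this group, with RHL41 at -0.91 ± 0.24, PMZ at -0.90 ± 0.28, CEJ1 at -0.74 ± 0.22 and WRKY75 at -0.65 ± 0.21. The count fell to 9 without the 4 libraries against their label, all among the 17, and 1 gene was then called in the opposite direction. Of all tested genes 622 were called lower with these libraries and 408 without them. The count among the 58 genes was 6 in experiment A alone. Experiment B alone called 7 genes lower and 4 higher. Leaving out the libraries of 1 replicate number gave 4 to 11 lower.

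The experiments themselves differed in the level of the genes, and in the response of some of them. Without bacteria, 53 of the 58 genes had a higher mean level in experiment A than in B in Col-0, 52 in phf1 and 51 in phr1 phl1. Of all eligible genes 71.4%, 60.3% and 68.3% were higher in A in the same order. The median differences were 1.28, 1.27 and 1.13 on the log2(CPM + 1) scale for the 58 genes, against 0.30, 0.12 and 0.19 for all eligible genes. The mean level over the 58 genes in phf1 without bacteria ran from 5.29 to 5.98 in experiment A and from 4.38 to 4.73 in experiment B. With SynCom it ran from 4.32 to 5.01 in A and from 3.23 to 3.92 in B. The SynCom libraries of experiment A therefore lay at about the level of the experiment B libraries without bacteria, and within an experiment the phf1 arms did not overlap. The phr1 phl1 arms overlapped in both experiments: SynCom ran from 4.45 to 6.15 and no bacteria from 5.19 to 5.78 in A, and from 3.301 to 4.22 and from 3.96 to 4.64 in B. The Col-0 arms did not overlap in B, and in A they did through the library without bacteria that went against its label, at 4.73 where SynCom reached 5.07. What differed between the experiments is not given in the labels.

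In the test of the response, the effect was more positive in experiment A for 17 of the 58 genes (29.3%) and more negative for 3 (5.17%). Of all tested genes 20.6% were called higher and 25.2% lower, so a response that differed between experiments was common and not particular to the set. AT3G25190 had a mean effect of -0.54 in A and -1.55 in B over the 4 mutant strata, and a fitted difference of 1.11 ± 0.18 (edgeR adjusted p = 6.5e-07). UGT73B1 had mean effects of -0.41 and -1.08, with a fitted difference of 0.73 ± 0.12 (edgeR adjusted p = 2.34e-07). AT4G33420 had -0.47 and -1.01, with a fitted difference of 0.64 ± 0.11 (edgeR adjusted p = 2.14e-06). In the opposite direction ARR7 had mean effects of -0.45 in A and 0.37 in B, CML38 -0.31 and 0.23, and MAKR6, annotated as a membrane-associated kinase regulator, -0.40 and 0.09. Their fitted differences were -0.84 ± 0.22, -0.60 ± 0.22 and -0.46 ± 0.18. Without the 4 libraries against their label the counts were 12 and 6. In the same test all 5 root endodermis genes were called higher in A minus B, with a median of 1.81 on the log2 scale, 4 of 15 photosynthesis genes were called lower, and of 10 root hair genes 3 were called higher and 1 lower. Their part in the response of the 58 genes was not tested.

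**Figure D4:**
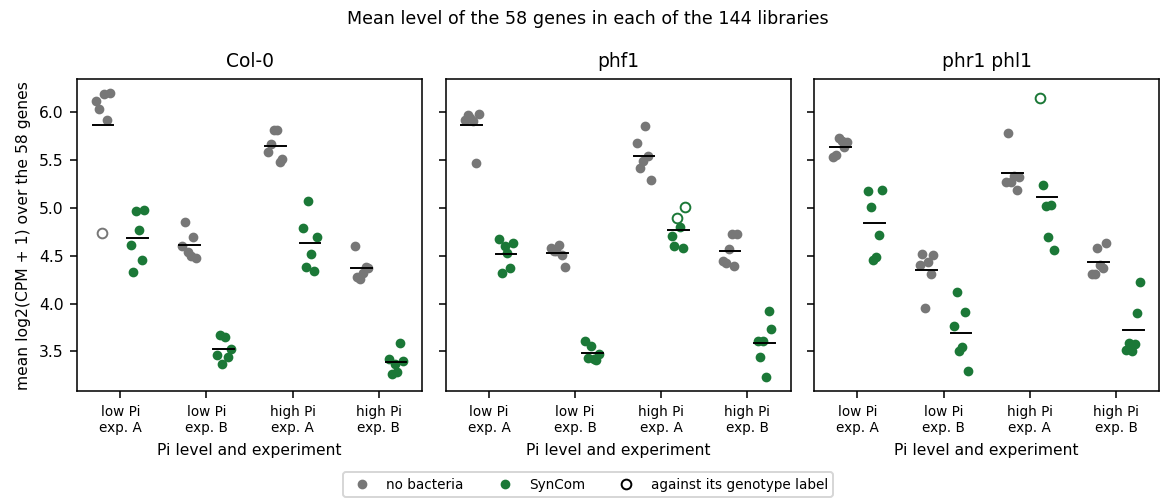
Mean log2(CPM + 1) over the 58 genes in each library, by genotype, Pi level and experiment; grey circles are libraries without bacteria, green circles are SynCom libraries, open circles are the 4 libraries that went against their genotype label and black lines are means of 6 libraries. The open grey circle in Col-0 at low Pi in experiment A is at 4.73, and the open green circle in phr1 phl1 at high Pi is at 6.15.

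Without bacteria, 6 of the 58 genes (10.3%) were higher at low than at high Pi in phf1 and none lower. Of all tested genes 3.02% were called higher and 1.81% lower. SERAT2;1, an enzyme of cysteine synthesis, lay at 44.4, 81.0 and 174 CPM at low Pi and at 36.5, 56.8 and 117 CPM at high Pi, a log2 fold change of 0.54 ± 0.12 (edgeR adjusted p = 0.0034). GSTU25 lay at 15.2, 54.2 and 187 CPM at low Pi and at 18.9, 29.2 and 62.2 CPM at high Pi, a log2 fold change of 0.97 ± 0.24 (edgeR adjusted p = 0.00796). Both ranges overlapped. AT2G41730 had a log2 fold change of 0.77 ± 0.21 (edgeR adjusted p = 0.0213), and the others were AT4G33070, GSTU24 and ABCB4, an auxin transporter of the root. The estimates differed between the experiments, a difference that was not tested: GSTU25 had a log2 fold change of 1.72 in A and 0.05 in B, and AT2G41730 of 1.22 and -0.10. In A alone 17 genes were called higher and 3 lower, and in B alone 0 were called higher. Leaving out the A1 libraries, or the A2 libraries, also gave 0. How many of all tested genes were called in these subsets is not given here. In phr1 phl1 edgeR called 0 genes in either direction (6 at an unadjusted p under 0.05, and 0 by DESeq2 and limma-voom), where 0.373% of all tested genes were called higher and 0.0414% lower.

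Of the pre-treatments, phosphite against Pi lowered 6 of the 58 genes and raised none in the mutants, where 3.67% of all tested genes were called lower and 4.82% higher. GRP9, annotated as a glycine-rich protein, had a log2 fold change of -0.47 ± 0.09 (edgeR adjusted p = 0.000424). WRKY75 had -0.47 ± 0.13 (edgeR adjusted p = 0.0114), and GSTU9 -0.40 ± 0.11 (edgeR adjusted p = 0.0139). The others were ABCB4, AATP1 and the aldo-keto reductase gene AKR4C8, and the count was 1 without the A2 libraries. Between the -P and +P pre-treatments edgeR called 0 genes (7 at an unadjusted p under 0.05, and 0 by DESeq2 and limma-voom), where 0.0104% of all tested genes were called in each direction.

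Without bacteria 16 of the genes were lower and 4 higher in phr1 phl1 than in phf1, where 7.03% of all tested genes were called lower and 3.59% higher. In the same comparison 9 of 10 root hair genes were called lower, with a median of -0.92 on the log2 scale, and their part in the values of the 58 genes was not tested. AATP1 had a log2 fold change of -1.04 ± 0.20 (edgeR adjusted p = 8.38e-05), AT1G26390 of -1.43 ± 0.32 (edgeR adjusted p = 0.000909) and AT1G69790 of -0.66 ± 0.15 (edgeR adjusted p = 0.00117). ARR7 at low Pi lay at 3.58, 5.42 and 9.02 CPM in phf1 and at 4.21, 11.5 and 21.2 CPM in phr1 phl1. In 8 of the 12 phr1 phl1 libraries at low Pi it was above the highest phf1 library. Averaged over both Pi levels, as for all fitted values here, its log2 fold change was 0.88 ± 0.16 (edgeR adjusted p = 3.04e-05). AT3G25190 had 0.57 ± 0.16 and AT5G38200 0.43 ± 0.12. Of the 13 genes with the more positive SynCom effect in phr1 phl1, AT1G26390, CYP710A1, MIOX4, CML38, AT1G69790, PMZ, AT1G76600, WRKY75 and AATP1 were among those already lower there without bacteria. The libraries without bacteria enter both comparisons.

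Genes of the same system outside the set give its surroundings. Of 27 tested genes of a list for electrophile and xenobiotic detoxification, 7 belong to the set, and the 20 others are counted here. With SynCom 13 of the 20 fell and none rose in phf1 at low Pi, and 10 fell and none rose in phf1 at high Pi. In phr1 phl1 6 fell and 1 rose at low Pi, and 3 fell and 1 rose at high Pi, the riser being GSTF6 at both levels. The 3 that fell in all 4 comparisons were OPR1 and OPR2, which reduce oxylipins and other electrophiles, and GSTU19. OPR2 had log2 fold changes of -0.87 ± 0.17, -1.38 ± 0.18, -1.44 ± 0.18 and -1.24 ± 0.18 in phf1 at low and high Pi and phr1 phl1 at low and high Pi, and OPR1 of -1.01 ± 0.20, -1.37 ± 0.20, -1.25 ± 0.20 and -1.23 ± 0.20. GSTU10 and GSTU3 of this list had a more positive SynCom effect in phr1 phl1 than in phf1, by 1.02 ± 0.20 (edgeR adjusted p = 0.00206) and 3.201 ± 0.67 (edgeR adjusted p = 0.00436), and so did the exporter gene ABCG40, by 2.53 ± 0.59 (edgeR adjusted p = 0.0147).

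Within families, 25 tau-class GST genes were tested, 6 of them in the set. With those 6 counted, 13 fell and 3 rose in phf1 at low Pi, and 11 and 0 at high Pi. In phr1 phl1 7 fell and 1 rose at low Pi, and 8 and 1 at high Pi. Of the 19 outside the set 7, 5, 3 and 3 fell and 3, 0, 1 and 1 rose in the same order. Of 11 phi-class GST genes, none in the set, 2 fell and 3 rose, 1 and 1, 1 and 5, and 0 and 3 in the same order. Among the 6 UGT73B and UGT73C genes tested, UGT73B2 lies outside the set and fell in all 4 comparisons, by 1.09 ± 0.17, 1.17 ± 0.17, 1.15 ± 0.17 and 0.70 ± 0.17 on the log2 scale. Of 8 genes of the mitochondrial retrograde response, the signal from impaired mitochondria to the nucleus, 2 belong to the set: AOX1A, the alternative oxidase, and UGT74E2. Of the 6 others, UPOX, NAC013, NAC017 and CYP81D8 fell in phf1 at low Pi and none fell in the other 3 comparisons, where OM66 rose in phr1 phl1 at high Pi. AOX1A had -1.08 ± 0.20 in phf1 at low Pi, and in phr1 phl1 at high Pi it had -0.04 ± 0.20 (edgeR adjusted p = 0.974). Of 24 sugar starvation genes, DIN2 belongs to the set; 17 of the 23 others fell in phf1 at low Pi and none was called in the other 3 comparisons. In the test of low against high Pi DIN2 and 7 of the 23 others differed, and in the test of the difference between the mutants DIN2 was the 1 gene of the 24 called. DIN2 fell by 1.98 ± 0.35 in phf1 at low Pi. Of 22 phosphate starvation genes, WRKY75 belongs to the set. In phf1 at low Pi it fell, whereas 19 of the 21 others rose and 0 fell. In phf1 at high Pi 7 of the 21 fell and 0 rose. In phr1 phl1 6 rose at low Pi, and 0 were called at high Pi. Of 13 hypoxia genes, AT4G33070 belongs to the set. Of the 12 others 3 fell and 1 rose in phf1 at low Pi, and 2 and 1 at high Pi. In phr1 phl1 1 fell at low Pi, and 0 were called at high Pi.

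The genes also varied together within groups. Over the 96 mutant libraries, after removal of the mean of each group in each experiment, the median correlation over 1653 pairs of the 58 genes was 0.22. It was 0.05 over pairs of eligible genes. Each group has 2 libraries in each experiment, so their residuals mirror each other and the 96 are not independent values. Mutant libraries against their label were kept, and no value was computed without them. Libraries share depth and harvest, and the values are descriptions. UGT74E2 was closest to ABCB4 (0.81), NIT2 to DIN2 (0.76), GSTU25 to GSTU1 (0.61) and CYP81D11 to DJ1A (0.57). In 4 cases members are near neighbours: GSTU24 and GSTU25 with no gene between them, GSTU2 and GSTU1 with 1, UGT73B3 and UGT73B1 with 2, and AT1G76600 and CML38 with 4.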

How the data were processed

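Deposited counts: per the labels' protocols, poly(A) RNA of whole seedlings gave non-stranded libraries; per the submitters' processing notes the tools were CASAVA 1.8, cutadapt 1.3, TopHat2 2.1.1 and HTSeq 0.6.1p1 on TAIR10, and the authors' table holds whole-number counts per gene. CPM used column totals. The members, roles and gene lists were chosen with earlier results of these data known. The genes named are the 12 strongest in Col-0, the smallest p-values in each comparison, listed genes and threshold neighbours; others were named after their values were seen. Groups were fitted with edgeR 4.0.16 in R 4.3.3 on all libraries: 36 group means plus an experiment term (72 means for A against B), filterByExpr at 10 counts (19321 genes; all 58 passed), TMM, and Benjamini-Hochberg adjustment over all genes within each of 12 comparisons. On simulated data for phf1 at low Pi (19321 genes), 67.2% of genes lowered 1.5-fold, 88.1% at 2-fold and 100% at 4-fold were called, with 11 of 19121 unchanged genes. Alternatives used DESeq2 1.42.0 and limma 3.58.1. P-values measure the spread between these libraries. In 216 within-group pairs none held identical counts. Libraries of equal replicate number did not deviate together (mean r 0.00841 in A and 0.00827 in B over 630 pairs of groups each).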

Additional observations from a re-analysis of the deposited data

Results flagged for a closer look

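In Col-0 after the +Phi pre-treatment at low Pi without bacteria, the mean log2(CPM + 1) over the 58 genes was 6.18 in the library labelled A2, against 4.73 in A1, 4.53 in B1 and 4.49 in B2. These levels are among the values the rule used, so this describes 1 library and tests nothing about the SynCom effect. The gap to the nearest library was 0.857 of the whole range, above the critical value of 0.829 for 4 libraries. This was 1 of 36 groups. The usual rate of 1 in 20, or 1.8 groups, assumes 4 libraries of the same kind. Each group holds 2 libraries of each experiment, which differ in level, so that rate does not apply here. The other Col-0 libraries of experiment A at low Pi without bacteria, after the -P and +P pre-treatments, were at 5.91, 6.19, 6.11 and 6.03, near the A2 library. The A1 library of this group is the one that went against its genotype label, and the part of that in the value was not tested.

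The SynCom effect differed between the mutants (phr1 phl1 minus phf1, edgeR adjusted p under 0.05) by 0.97 for AT1G76600, 1.38 for NIT2 and 1.81 for MIOX4 on the log2 scale. It differed between low and high Pi by -1.07 for AT3G45730, -1.22 for AT2G41730 and -0.95 for AT1G76600. It differed between experiments A and B by -0.84 for ARR7, -0.60 for CML38, -0.46 for MAKR6, 0.73 for UGT73B1, 1.11 for AT3G25190 and 0.64 for AT4G33420. That test called 20.6% of all tested genes higher and 25.2% lower.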

How the results depend on the processing

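Counts are of the 58 genes called at an adjusted p under 0.05, and their causes of change were not tested. The number of all tested genes called also changed between settings and is not given for each. Over 44 values of named genes and 724 alternatives, 659 kept direction and side of the threshold, 64 kept direction and lost the threshold, and 1 changed sign: AT2G41730 at low against high Pi in phf1 without bacteria was -0.10 in experiment B alone. Of 408 alternatives for 25 counts, 343 stayed within 1.5 times. Many of the 25 counts were 0, and a 0 that stayed at 0 is among the 343. The share says less about the counts above 0. With the replicate block the phf1 low Pi count was 56 and the low against high Pi difference 18, and no count moved by over 1.5 times.

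Without the experiment term fewer genes fell with SynCom: 11 in phf1 at high Pi, 10 in phr1 phl1 at low Pi and 5 at high Pi. That setting gave 0 for the genotype difference, 3 for the Pi difference, 0 higher at low Pi in phf1, 0 lower after +Phi, and 4 lower and 2 higher in phr1 phl1 without bacteria. Experiment A alone gave 23 in phf1 at high Pi, 6 in phr1 phl1 at high Pi, 6 for the Pi difference, 17 higher and 3 lower at low Pi in phf1, 1 higher at low Pi in phr1 phl1 and 1 higher after +Phi. Experiment B alone gave 4 for the genotype difference, 7 lower and 4 higher for the Pi difference, 0 higher at low Pi in phf1, 3 lower after +Phi, 2 lower and 2 higher after -P, and 4 lower in phr1 phl1 without bacteria. With 72 means, 1 gene was higher with SynCom in phr1 phl1 at low Pi, 2 were lower at low Pi in phf1, 1 higher at low Pi in phr1 phl1, 9 higher at low Pi in phf1, 1 higher after +Phi, 1 lower after -P, and 6 higher in phr1 phl1 without bacteria. limma-voom gave 7 for the genotype difference and 1 lower at low Pi in phf1, and DESeq2 gave 1 higher after +Phi. Without the 4 libraries against their label the Pi difference was 9 lower and 1 higher and the A minus B difference 6 lower; without 6 libraries (those, the shallowest and the most variable) these were 9, 1 and 6.

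Leaving out A1, A2, B1 or B2 libraries gave 24 to 37 in phf1 at high Pi, 10 to 31 in phr1 phl1 at high Pi, 1 to 7 for the genotype difference, 4 to 11 lower and 0 to 1 higher for the Pi difference, 0 to 5 lower and 7 to 18 higher for A minus B, 0 to 9 higher and 0 to 1 lower at low Pi in phf1, 1 to 5 lower and 0 to 1 higher after +Phi, and 7 to 14 lower and 2 to 4 higher in phr1 phl1 without bacteria. The rule itself chose 59 genes (52 shared) on TMM-scaled CPM, 65 on log2(CPM + 0.5), 66 without the Col-0 library against its label, and 49 to 75 with 1 replicate number left out.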
